A study of Mus musculus with 8 samples.

Results

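The genes described here are 38 interferon-stimulated genes of the mouse, chosen by symbol from type I and type II interferon responses, and their transcripts were followed in 8 whole-kidney RNA-seq libraries. The counts deposited for each library held a row for 37 of the 38, out of 37583 gene rows in all, and all 37 passed the filter on low counts that left 15228 genes for testing. Of those 37, 29 respond chiefly to type I interferon and 8 to type II interferon, with overlap between the classes; the immunoproteasome gene Psmb9 was not analysed here. Of the 8 libraries, KO1 to KO4 are labelled knockout and came from b-actinCreERT2+TFAP2Bfl/fl mice, in which a tamoxifen-activated Cre recombinase under a beta-actin promoter can delete the floxed gene for the transcription factor AP-2 beta in most cell types. The other 4, WT1 to WT4, are labelled wildtype and came from control littermates. The sources used here do not give age, sex, tamoxifen schedule or the alleles of the controls. The comparison asks which kidney transcripts differ between the genotypes.

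Interferons are cytokines released on infection or tissue damage. Type I interferons bind the IFNAR receptor, which acts through the kinases JAK1 and TYK2 to bring STAT2 and IRF9 into a complex that binds interferon-stimulated response elements (ISRE) in promoters. Type II interferon, or interferon gamma, binds the IFNGR receptor, which acts through JAK1 and JAK2 and leads to binding at gamma-activated sites (GAS). Both routes switch on genes for antiviral enzymes, nucleic acid sensors, GTPases of cell-autonomous defence and the machinery of antigen presentation, and resident kidney cells as well as leukocytes can respond.

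The libraries held 13435113 to 17930347 gene counts. Kidney markers such as Umod and Lrp2 were present in all 8, with a summed level over 8 marker genes of 10900 to 13600 CPM, counts scaled to library size, in the libraries labelled knockout and 19700 to 21000 CPM in those labelled wildtype. The targeted gene went against the labels: Tfap2b had 238.1, 266.5, 237.0 and 240.3 CPM in KO1 to KO4, against 94.3, 104.9, 110.5 and 102.8 CPM in WT1 to WT4. Counts over the whole gene do not show whether the floxed exons are gone, so the libraries are called by their labels throughout. In bulk tissue, fewer cells of a type and less RNA per cell cannot be told apart. Nothing in the labels says more than that each library is a separate kidney sample, so p-values measure only the spread between these samples.

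The promoters of the members were searched for both elements. RefSeq promoter windows (build GRCm38.p6, 250 bases before to 50 after the start) were matched for 30 of the 38 members; Oas2, Mx1, Mx2, Rtp4, Parp14, Dhx58, Zbp1 and Usp18 had no entry. An ISRE core, spelled GAAA, any 2 bases and GAAA again, and searched on both strands, was found in 10 of 21 type I members and 5 of 9 type II members with a window, against 3.99% of the 27025 genes of the table. A GAS core, spelled TTCNNNGAA and likewise searched on both strands, was found in 5 of 21 type I and 4 of 9 type II members, against 9.55% of all genes. A match describes letters and does not show that a factor binds there. Stretches with an ISRE core are shown first, from members with contrasting values below. They run 5′ to 3′ along the gene, end before its start, and have the core in capitals, which reads TTTC, any 2 bases and TTTC where it lies on the opposite strand.
Isg15: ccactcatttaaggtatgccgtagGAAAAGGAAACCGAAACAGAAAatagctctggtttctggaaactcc
Ifit1: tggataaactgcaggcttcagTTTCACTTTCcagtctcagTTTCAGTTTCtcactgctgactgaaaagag
Bst2: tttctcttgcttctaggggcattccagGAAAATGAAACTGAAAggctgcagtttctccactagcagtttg
Oas3: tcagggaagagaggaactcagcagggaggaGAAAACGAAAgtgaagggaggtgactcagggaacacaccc
Gbp2: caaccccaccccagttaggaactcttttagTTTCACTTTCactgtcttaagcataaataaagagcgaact
Gbp3: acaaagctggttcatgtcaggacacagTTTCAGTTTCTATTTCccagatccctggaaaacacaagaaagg
Isg15 lies at chr4:156200851-156200920, minus strand, and its capitals hold 3 overlapping cores. Ifit1 lies at chr19:34640764-34640833, plus strand, with 2 separate cores. Bst2 lies at chr8:71537560-71537629, minus strand, with 2 overlapping cores, and a GAS core overlaps their upstream edge. Oas3 lies at chr5:120777695-120777764, minus strand, Gbp2 at chr3:142620574-142620643, plus strand and Gbp3 at chr3:142559972-142560041, plus strand; Oas3 and Gbp2 hold 1 core each and Gbp3 holds 2 that overlap.

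A GAS core, again in capitals, is shown for a pair of type II members.
Irf1: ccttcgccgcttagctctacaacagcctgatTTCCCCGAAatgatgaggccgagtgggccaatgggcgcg
Psmb8: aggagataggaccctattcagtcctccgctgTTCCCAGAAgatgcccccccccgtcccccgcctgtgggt
The Irf1 stretch is chr11:53769893-53769962, plus strand, and the Psmb8 stretch is chr17:34198067-34198136, plus strand. The 250 bases before the start of Irf9, the member with the smallest adjusted p-value, are at chr14:55603735-55603984, plus strand and held neither spelling, so they carry no capitals.
Irf9: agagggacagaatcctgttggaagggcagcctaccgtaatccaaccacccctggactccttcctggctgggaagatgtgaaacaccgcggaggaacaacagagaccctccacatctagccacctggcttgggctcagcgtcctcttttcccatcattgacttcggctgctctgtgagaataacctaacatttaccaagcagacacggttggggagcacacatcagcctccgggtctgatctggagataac

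Few interferon-stimulated genes passed the test, and the share that rose was near that of all genes. Not passing with 4 libraries a group does not show that a gene was unchanged. Of the 37, 2 rose in the libraries labelled knockout, Irf9 and Oas2, both of the type I class, and no member fell. That is 5.41% of the members, against 11.9% of all 15228 genes tested (6.23% higher and 5.7% lower in libraries labelled knockout), a difference in shares that was not tested. Of the 29 type I members 2 passed, and of the 8 type II members 0 passed edgeR's quasi-likelihood test with Benjamini-Hochberg adjustment over all genes; DESeq2 and limma voom called the same 2 type I members and 0 type II members. At an unadjusted p under 0.05, edgeR had 7 members, or 18.9%, against 27.1% of all genes, of which 5 were type I and 2 were type II. The 4 libraries labelled knockout did not overlap the 4 labelled wildtype in 2 members, both higher, or 5.41%, against 18.5% of all genes (9.42% higher and 9.05% lower).

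Most members nevertheless stood slightly higher in the libraries labelled knockout. The log2 fold change, knockout over wildtype, was above 0 in 29 of 37 members (78.4%), against 50.1% of all genes. Its median was 0.24 over the type I members, with a range of -0.28 to 0.95, and 0.26 over the type II members, with a range of -0.46 to 0.48, whereas the median over all genes was 0.00. Scaled by library totals alone, the median of all genes was 0.11, so that 0.00 is the level the members are set against. The 95% interval of the log2 fold change lay within 2-fold in either direction for 31 members (83.8%), 24 of type I and 7 of type II, against 82.2% of all genes.

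**Figure D1:**
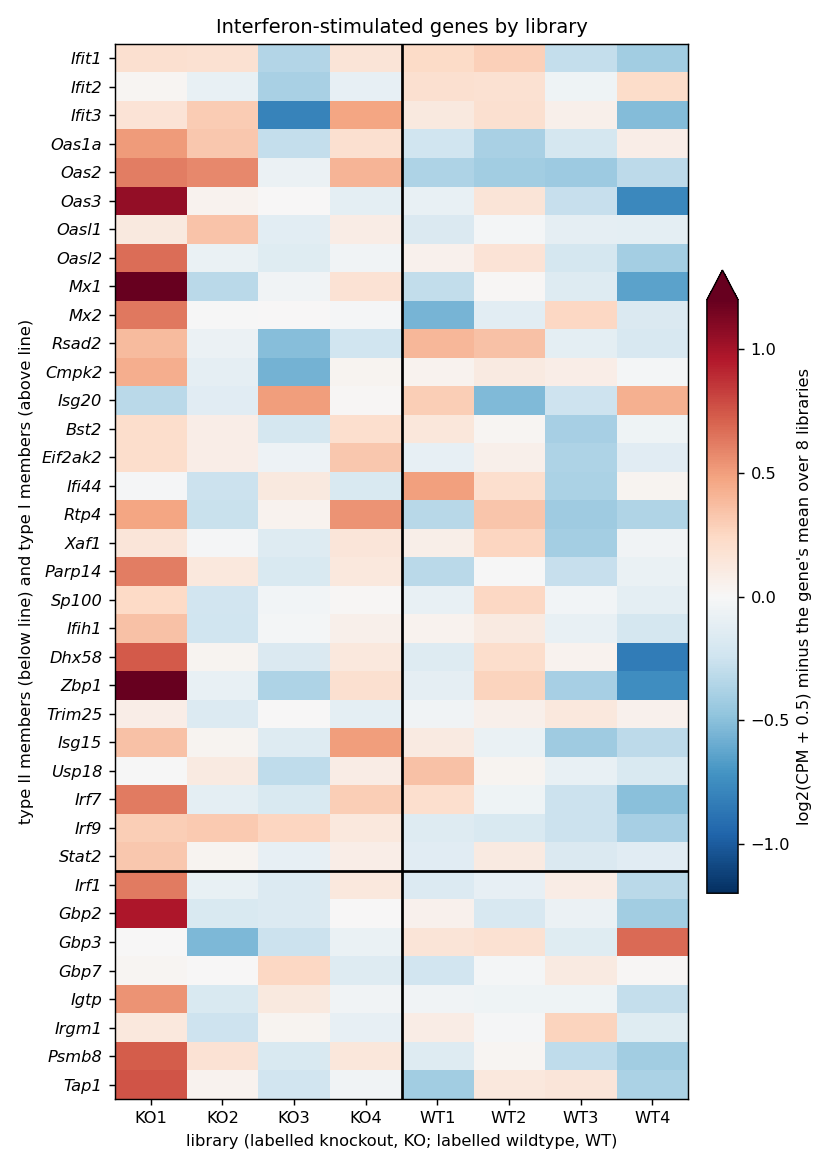
The heatmap shows log2(CPM + 0.5) of each of the 37 members minus that gene's mean over the 8 libraries, with type I members above the line and type II members below it; red is above the mean and blue below. KO1 is red in 34 of the 37 members, and KO3 is above the mean in 10.

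**Figure D2:**
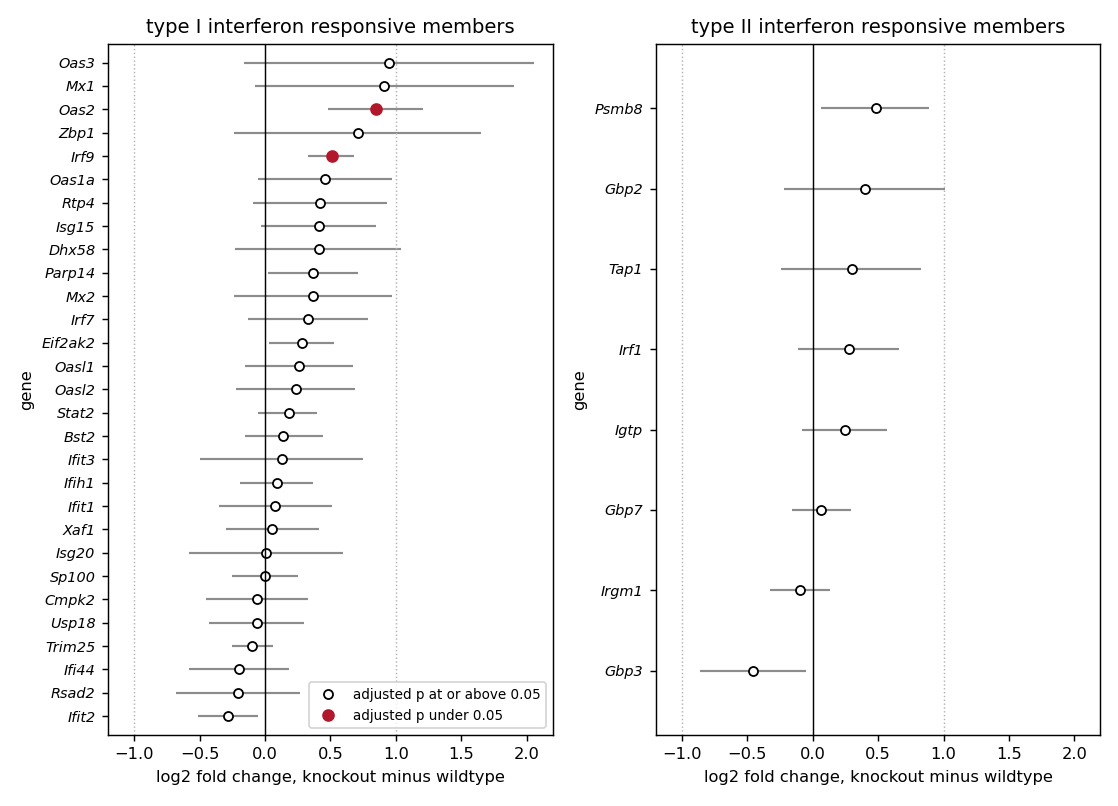
Points are the log2 fold changes of the 29 type I members and the 8 type II members, knockout over wildtype, with bars for the 95% interval; filled points have an edgeR adjusted p under 0.05 and dotted lines mark 2-fold. Irf9 and Oas2 are the filled points, and the bars of 31 members stay between the dotted lines.

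Among the transcription factors of the type I response, Irf9 rose by 1.42-fold. Irf9, the DNA-binding subunit of the complex that binds the ISRE, had 38.9, 39.3, 37.97 and 34.6 CPM in KO1 to KO4, against 28.2, 27.8, 26.3 and 23.8 CPM in WT1 to WT4. Every library labelled knockout lay above every library labelled wildtype. The log2 fold change was 0.51 ± 0.080 (SE, n = 4 each, 95% interval 0.33 to 0.68), with an edgeR quasi-likelihood adjusted p of 0.00261. Leaving out each library in turn kept it between 0.46 and 0.55, with adjusted p-values of 0.00487 to 0.0108; with a score of circadian clock genes as a term (mean log2 level of output genes minus that of activators) it was 0.47 with an edgeR adjusted p of 0.0534. That score was 1.17, -0.99, -1.33 and -0.59 in KO1 to KO4, against 0.42, 1.68, 3.23 and 2.15 in WT1 to WT4, so it differed with the labels. Exons of Irf9 overlap Rnf31 on the same strand, so some of its reads may have been counted as ambiguous.

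Stat2 and Irf7 did not pass. Stat2, the partner of IRF9 in that complex, had 46.5, 37.9, 34.4 and 39.2 CPM in KO1 to KO4, against 33.7, 39.97, 32.7 and 33.5 CPM in WT1 to WT4. KO1 was the highest library and the groups overlapped, with a log2 fold change of 0.18 ± 0.10 and an edgeR adjusted p of 0.299. Irf7, which drives the amplification of type I interferon genes, had 24.0, 14.2, 13.5 and 19.0 CPM in KO1 to KO4, against 17.8, 14.9, 12.8 and 10.7 CPM in WT1 to WT4. It was highest in KO1 and lowest in WT4, and its log2 fold change was 0.33 ± 0.21 with an edgeR adjusted p of 0.340. Exons of Irf7 overlap Phrf1 on the opposite strand, and the deposited counting is named as not stranded, so reads of the pair cannot be told apart where they overlap.

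The OAS family held the other member that passed. The OAS enzymes are switched on by double-stranded RNA and make oligoadenylates that activate RNase L, and Oasl1 and Oasl2 encode OAS-like proteins. All 5 members had log2 fold changes above 0, with a median of 0.46, and 1 of the 5 rose. Oas2 had 10.8, 10.5, 6.54 and 9.32 CPM in KO1 to KO4, against 5.197, 5.04, 4.95 and 5.46 CPM in WT1 to WT4. The 4 libraries labelled wildtype lay between 4.95 and 5.46 CPM, and the lowest library labelled knockout, KO3, was above all of them. Oas2 was 1.80-fold higher, with a log2 fold change of 0.85 ± 0.17 (SE, n = 4 each, 95% interval 0.48 to 1.21) and an edgeR adjusted p of 0.00796. Without each library in turn the value ran from 0.77 to 0.99 with edgeR adjusted p-values of 0.00221 to 0.0308; without both KO1 and KO4 it was 0.72 with an adjusted p of 0.0757.

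In the other OAS genes the groups overlapped. Oas3 had 1.93, 0.70, 0.67 and 0.58 CPM in KO1 to KO4, against 0.60, 0.80, 0.47 and 0.18 CPM in WT1 to WT4. KO1 stood apart, the other 7 libraries were at or under 0.80 CPM, and the log2 fold change of 0.95 ± 0.51 became 0.38 without KO1. The transcript was near the detection limit, which a count of 3 puts at 0.168 to 0.226 CPM, counting error only. Oasl2 had 21.1, 12.4, 11.7 and 12.6 CPM in KO1 to KO4, against 13.6, 14.7, 11.2 and 9.71 CPM in WT1 to WT4. Again KO1 alone was high. Oas1a had 4.27, 3.69, 2.24 and 3.32 CPM in KO1 to KO4, against 2.34, 2.05, 2.39 and 3.03 CPM in WT1 to WT4, with a log2 fold change of 0.46 ± 0.23, an edgeR adjusted p of 0.232 and overlapping groups. Oas1a has close relatives in the mouse genome, Oas1g among them, between which reads can be split. Oasl1 ran from 2.35 to 3.45 CPM in KO1 to KO4 and 2.26 to 2.56 CPM in WT1 to WT4.

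None of the 3 IFIT genes passed, and they did not share a direction. IFIT proteins bind viral RNA and block its translation. Ifit2 had 24.3, 22.4, 18.1 and 22.2 CPM in KO1 to KO4, against 27.4, 27.2, 23.1 and 28.0 CPM in WT1 to WT4. Its log2 fold change was -0.28 ± 0.11 with an unadjusted p of 0.0219 and an edgeR adjusted p of 0.111, the smallest of any member that did not pass, and KO1 and WT3 were the libraries that made the groups overlap. Ifit1 had 11.5, 11.4, 7.66 and 11.1 CPM in KO1 to KO4, against 11.8, 12.3, 8.09 and 7.34 CPM in WT1 to WT4. KO3 was low within its group, as were WT3 and WT4 within theirs, and the log2 fold change was 0.08 ± 0.19. Ifit3 had 27.7, 30.6, 13.9 and 34.4 CPM in KO1 to KO4, against 26.7, 28.2, 25.7 and 17.0 CPM in WT1 to WT4, with KO3 lowest and KO4 highest. Its log2 fold change was 0.13 ± 0.27; Ifit3b is a near-identical copy, so the count of either is uncertain. The ISRE cores shown for Ifit1 stand before a gene whose groups overlapped.

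Of the 12 other antiviral members, 0 passed edgeR's test and 2 had an unadjusted p under 0.05; log2 fold changes were above 0 in 9, with a median of 0.10. Eif2ak2 encodes PKR, the kinase that halts translation on sensing double-stranded RNA. It had 28.9, 26.4, 23.9 and 31.5 CPM in KO1 to KO4, against 23.3, 26.1, 19.3 and 22.7 CPM in WT1 to WT4. KO3 lay below WT2 and the groups did not overlap otherwise, with a log2 fold change of 0.28 ± 0.11 and an edgeR adjusted p of 0.135. Parp14, an ADP-ribosyltransferase, had 45.4, 32.3, 25.9 and 32.4 CPM in KO1 to KO4, against 23.6, 29.4, 24.2 and 28.0 CPM in WT1 to WT4. KO1 was the highest, KO3 lay among the libraries labelled wildtype, and the log2 fold change was 0.37 ± 0.16 with an edgeR adjusted p of 0.154.

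The myxovirus GTPases were both highest in KO1. Mx1, which blocks influenza viruses in mice with an intact gene, had 3.62, 0.88, 1.17 and 1.44 CPM in KO1 to KO4, against 0.90, 1.24, 1.05 and 0.61 CPM in WT1 to WT4. KO1 was the highest library by far, KO4 the next, and the log2 fold change of 0.91 ± 0.45 became 0.29 without KO1. Mx2 had 3.57, 2.11, 2.12 and 2.09 CPM in KO1 to KO4, against 1.28, 1.90, 2.62 and 1.82 CPM in WT1 to WT4. KO2, KO3 and KO4 lay between 2.09 and 2.12 CPM, below WT3, so that its log2 fold change of 0.37 ± 0.27 became 0.14 without KO1.

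Several antiviral genes stood lower or level in the libraries labelled knockout. Rsad2 encodes viperin, which makes a chain-terminating nucleotide. It had 50.4, 36.8, 27.1 and 32.7 CPM in KO1 to KO4, against 51.1, 49.4, 35.6 and 33.8 CPM in WT1 to WT4. KO1, WT1 and WT2 were at 49.4 to 51.1 CPM and the other 5 libraries at or under 36.8 CPM, a split that crossed the labels, and the log2 fold change was -0.21 ± 0.21. Cmpk2, a mitochondrial nucleotide kinase next to Rsad2, ran from 12.4 to 25.4 CPM in libraries labelled knockout and 18.4 to 20.2 CPM in those labelled wildtype, with a log2 fold change of -0.06. Ifi44 ran from 15.4 to 20.1 and 14.1 to 26.4 CPM in the same order of labels, with a log2 fold change of -0.20. Sp100, a nuclear body protein, had a log2 fold change of 0.00 with a 95% interval of -0.25 to 0.25.

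In the remaining 4 antiviral members the groups overlapped too. Bst2 encodes tetherin, which holds budding virions at the cell surface, and it ran from 16.8 to 22.7 CPM in libraries labelled knockout and 14.8 to 21.6 CPM in those labelled wildtype. Rtp4 ran from 6.26 to 11.3 and 5.53 to 9.72 CPM, again with knockout labels first, and its log2 fold change of 0.42 ± 0.23 had an edgeR adjusted p of 0.273. Isg20, an RNA exonuclease, ran from 3.45 to 6.49 and 2.92 to 6.13 CPM, and Xaf1 from 6.43 to 8.02 and 5.30 to 8.69 CPM.

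Of the 4 nucleic acid sensors and sensor regulators, 0 passed. Zbp1, a sensor of Z-form nucleic acid that can trigger necroptosis, had 6.55, 2.28, 1.79 and 2.89 CPM in KO1 to KO4, against 2.26, 3.07, 1.75 and 1.27 CPM in WT1 to WT4. KO1 was the only library above 3.07 CPM, and the log2 fold change of 0.71 ± 0.43 became 0.16 without it. Dhx58 encodes LGP2, a regulator of RNA sensing, and had 6.43, 3.75, 3.19 and 4.04 CPM in KO1 to KO4, against 3.24, 4.31, 3.78 and 1.82 CPM in WT1 to WT4, with KO1 highest and WT4 lowest. Ifih1, the long double-stranded RNA sensor MDA5, had 31.6, 20.7, 24.1 and 25.6 CPM in KO1 to KO4, against 25.2, 26.4, 23.1 and 21.2 CPM in WT1 to WT4, with a log2 fold change of 0.09 ± 0.13. KO1 was again highest, and the other 7 libraries interleaved. Trim25, a ubiquitin ligase of the RIG-I route, was at 84.1 to 99.9 CPM in libraries labelled knockout and 91.8 to 102.7 CPM in those labelled wildtype, with a log2 fold change of -0.10 ± 0.072.

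The ISG15 system has a modifier, Isg15, that is joined to target proteins, and a protease, Usp18, that removes it and damps the type I receptor. Isg15 had 6.25, 4.92, 4.25 and 7.005 CPM in KO1 to KO4, against 5.197, 4.53, 3.43 and 3.76 CPM in WT1 to WT4. KO4 and KO1 were highest, KO3 lay below WT1 and WT2 and KO2 below WT1, and the log2 fold change was 0.41 ± 0.20 with an edgeR adjusted p of 0.221. Usp18 ran from 4.92 to 6.73 CPM in libraries labelled knockout and 5.40 to 8.06 CPM in those labelled wildtype, with a log2 fold change of -0.06 ± 0.17. The overlapping ISRE cores printed above stand before Isg15.

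None of the 8 type II members passed, and 2 of them, Gbp3 and Psmb8, had an unadjusted p under 0.05. Irf1, the transcription factor first induced by interferon gamma through its GAS site, had 45.7, 27.6, 26.3 and 32.2 CPM in KO1 to KO4, against 26.2, 27.6, 31.5 and 23.5 CPM in WT1 to WT4. KO1 was high, KO2 and KO3 lay within the range of the libraries labelled wildtype, and the log2 fold change of 0.28 ± 0.17 became 0.07 without KO1. Exons of Irf1 overlap a predicted gene, Gm17334, on the opposite strand.

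The guanylate-binding proteins are GTPases that attack the membranes around intracellular pathogens, and 0 of the 3 passed edgeR's test. Gbp2 had 37.6, 16.7, 16.8 and 19.0 CPM in KO1 to KO4, against 19.7, 16.6, 18.1 and 14.1 CPM in WT1 to WT4. KO1 stood apart, and the log2 fold change of 0.40 ± 0.27 became 0.03 without it. Gbp3 had 85.7, 58.6, 71.5 and 80.7 CPM in KO1 to KO4, against 95.1, 96.7, 77.1 and 137.5 CPM in WT1 to WT4. KO1 and KO4 lay above WT3, WT4 was the highest by far, and this gave a log2 fold change of -0.46 ± 0.18 with an edgeR adjusted p of 0.140. Gbp7 ran from 33.5 to 44.7 CPM in libraries labelled knockout and 31.9 to 40.5 CPM in those labelled wildtype, with a log2 fold change of 0.06 ± 0.10. The ISRE cores printed for Gbp2 and Gbp3 lie close to the start of each gene.

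The immunity-related GTPases Igtp and Irgm1 defend against intracellular parasites. Igtp had 34.4, 20.7, 25.7 and 22.9 CPM in KO1 to KO4, against 22.9, 22.6, 22.8 and 19.2 CPM in WT1 to WT4. KO1 was highest, WT4 lowest and the log2 fold change 0.25 ± 0.15; its exons overlap Irgm2 on the same strand. Irgm1 ran from 54.4 to 70.5 CPM in libraries labelled knockout and 58.3 to 77.8 CPM in those labelled wildtype, with a log2 fold change of -0.10 ± 0.10.

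The antigen-processing members were Psmb8, an immunoproteasome subunit, and Tap1, which carries peptides into the endoplasmic reticulum. Psmb8 had 25.1, 16.9, 13.1 and 16.5 CPM in KO1 to KO4, against 13.4, 15.2, 12.0 and 11.1 CPM in WT1 to WT4. KO3 lay below WT1 and WT2, and the log2 fold change was 0.48 ± 0.19 with an edgeR adjusted p of 0.126, or 0.27 without KO1. Tap1 had 39.3, 23.9, 19.7 and 22.5 CPM in KO1 to KO4, against 17.2, 25.4, 25.6 and 17.7 CPM in WT1 to WT4. KO1 was high, 3 libraries labelled knockout lay within the range of those labelled wildtype, and the log2 fold change of 0.30 ± 0.23 became 0.04 without KO1. Exons of Tap1 overlap Psmb9 on the opposite strand, and those of Psmb8 a predicted gene, Gm20496, so reads in the overlaps cannot be assigned by strand. With the clock gene score as a term, Irf1 and Tap1 passed, with log2 fold changes of 0.70 and 0.90 and edgeR adjusted p-values of 0.0380 and 0.0358. The type I member Mx2 passed too, at 1.16 with an edgeR adjusted p of 0.0481. That score differed with the labels. Only KO1, at 1.17, lay within the range of the libraries labelled wildtype, 0.42 to 3.23, while KO2, KO3 and KO4 lay below it. KO1 was also the highest library in Irf1, Tap1 and Mx2, and WT1 the lowest in Tap1 and Mx2. How far these calls rest on KO1 and WT1 was not tested.

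**Figure D3:**
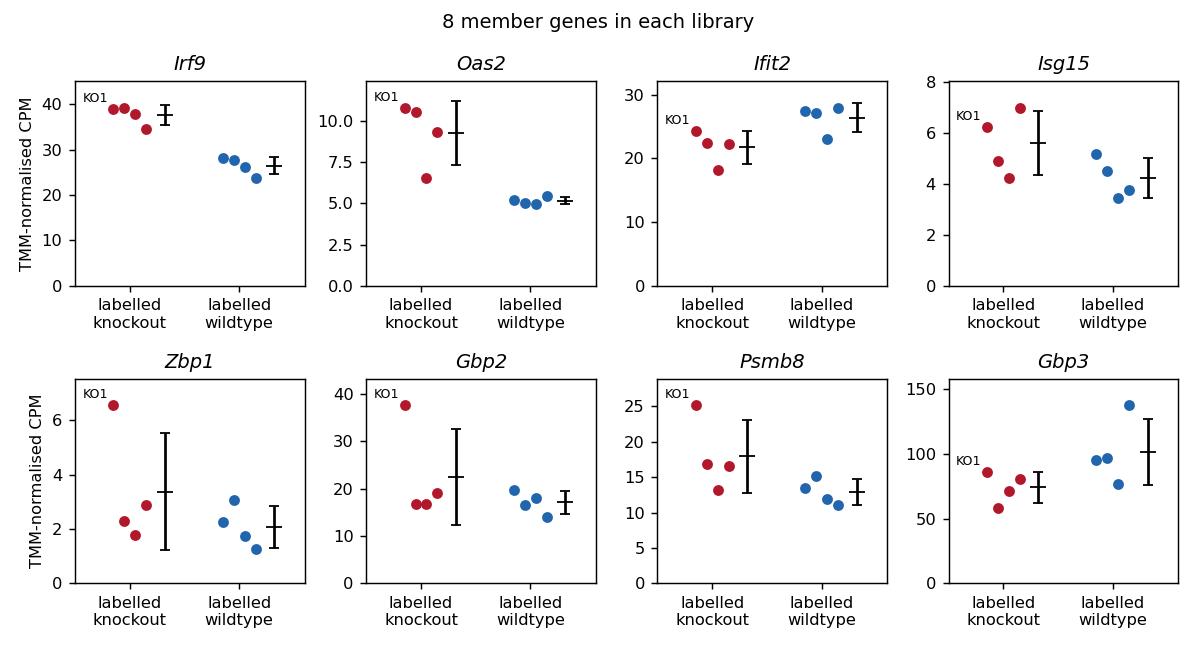
Each panel shows 1 member in the 8 libraries, as TMM-normalised CPM from an axis of 0, with 4 libraries labelled knockout left of 4 labelled wildtype and the mean ± SD beside each group. Oas2 and Irf9 separate by label, while in Zbp1 and Gbp2 KO1 alone lies above the rest, at 6.55 and 37.6 CPM.

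Per kilobase of exon, the members spanned a wide range of levels. Gbp3 and Bst2 had the highest mean levels, Gbp3 with 22.7 CPM per kilobase in libraries labelled knockout and 31.1 under the wildtype label, and Bst2 with 23.0 and 20.8 in the same order. Trim25 had 15.9 and 17.0, and Ifit3 had 15.3 and 14.0. The lowest were Oas3, with 0.137 and 0.0726, and Mx1, with 0.470 and 0.251. Among the called members Irf9 had 7.0 and 4.93 CPM per kilobase and Oas2 had 2.09 and 1.16. Exon lengths come from a later annotation (GENCODE M21) than the mm9 build of the counts, and they bear on these levels only.

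A single library, KO1, stood highest in many members. It was the highest of the 8 libraries in 19 of 37 members (51.4%; 14 of 29 type I and 5 of 8 type II), against 16.0% of all genes. The median deviation of the type I members from each gene's mean, in log2(CPM + 0.5), was 0.35, -0.01, -0.15 and 0.13 in KO1 to KO4, against -0.04, 0.11, -0.21 and -0.19 in WT1 to WT4. For the type II members it was 0.58, -0.14, -0.17 and -0.04 in KO1 to KO4, against -0.10, -0.02, 0.02 and -0.30 in WT1 to WT4. So KO1 was high in both classes, KO2 and KO3 were at or below the middle, and WT2 stood above KO2 and KO3 in the type I class. Members above their own mean numbered 34, 17, 10 and 25 in KO1 to KO4, against 17, 23, 9 and 7 in WT1 to WT4. WT4 was the lowest of the 8 libraries in 12 members.

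Without KO1, the log2 fold change was lower in 34 of the 37 members. The median became 0.13 for the type I members and 0.05 for the type II members, 26 members had a value above 0 and 11 a value below, and the highest type II value was 0.27. The calls did not move: Irf9 had 0.49 with an edgeR adjusted p of 0.00525, and Oas2 had 0.77 with an adjusted p of 0.0177. Without both KO1 and KO4 the median was 0.00 in the type I members and 0.00 in the type II members, and Irf9 was the 1 member that passed.

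**Figure D4:**
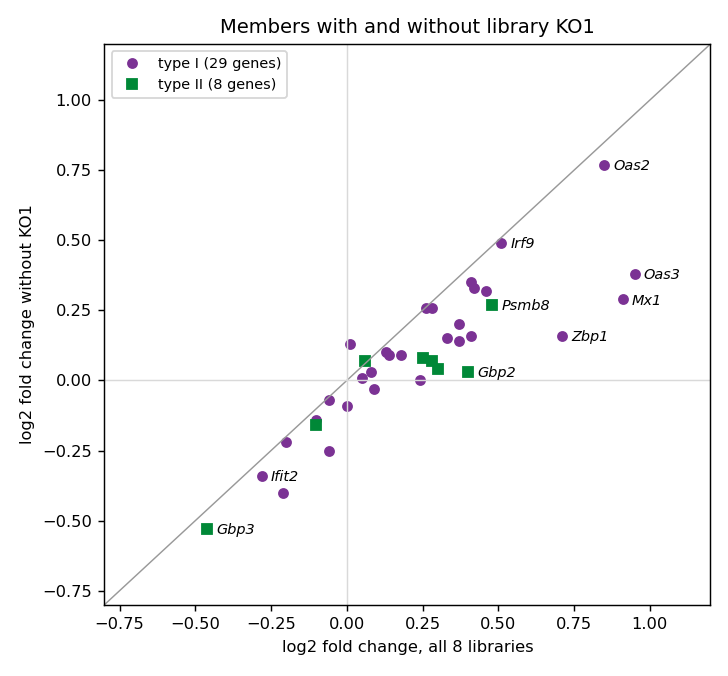
Each point is 1 of the 37 members, with its log2 fold change over all 8 libraries on the x axis and without KO1 on the y axis; the diagonal marks equal values. Points for 34 members lie below the diagonal, with Oas3, Mx1 and Zbp1 furthest from it and Irf9 close to it.

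KO1 was also the highest library for macrophage markers and for T cell markers other than Cd8a. Of 13 macrophage markers, 11 rose (edgeR adjusted p under 0.05), or 84.6%, against 6.23% of all genes. KO1 was the highest library in 11 of them, or 84.6%, against 16.0% of all genes. The summed level of the 13 was 650, 439, 425 and 488 CPM in KO1 to KO4, against 264, 308, 333 and 301 CPM in WT1 to WT4. KO2, KO3 and KO4 thus also lay above every library labelled wildtype, as they did in Irf9 and Oas2 and in no other member. Of 9 T cell markers, 0 passed edgeR's test, 1 had an unadjusted p under 0.05, and DESeq2 called 1 and limma voom 0. Over all 9, their summed level was 36.9, 74.4, 53.9 and 18.6 CPM in KO1 to KO4, against 12.5, 15.8, 15.5 and 20.2 CPM in WT1 to WT4. KO2, not KO1, was the highest library in that sum. Cd8a was then left out, a choice made after its values were seen. The sum was then 26.4, 16.4, 12.7 and 11.9 CPM in KO1 to KO4, against 9.42, 13.5, 14.4 and 4.85 CPM in WT1 to WT4. KO1 was the highest library in all 8 of those markers. The part of these cells in the values of the member genes was not tested.

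Among the other cell lists, 0 markers rose and 2 passed in the other direction, with calls that hung on single libraries. Natural killer markers summed to 3.58 to 6.2 CPM in libraries labelled knockout and 2.55 to 3.92 CPM in those labelled wildtype, and 0 of 3 tested passed. Of those 3, 2 had an unadjusted edgeR p under 0.05, and the log2 fold changes ran from 0.81 to 1.08. Plasmacytoid dendritic cell markers, which mark the main makers of type I interferon, summed to 1.73 to 3.98 and 2.03 to 4.12 CPM, and Cox6a2, 1 of 2 tested, fell. Cox6a2 had 0.29, 0.41, 0.34 and 0.29 CPM in KO1 to KO4, against 0.75, 0.73, 0.87 and 3.03 CPM in WT1 to WT4; WT4 was far above the rest, and the edgeR adjusted p of 0.0334 became 0.0537 to 0.0856 without any 1 of KO1, KO2, KO3, KO4 and WT4, and 0.0601 with limma voom. Cox6a2 also passed the filter on low counts only through the libraries labelled wildtype, where it was high. B cell markers summed to 4.62 to 13.1 and 2.79 to 18.1 CPM with 0 of 4 called, and neutrophil markers to 1.70 to 5.34 and 2.49 to 3.36 CPM with 0 of 2 called and Ly6g at 0 in all 8 libraries. Endothelial markers summed to 456 to 536 and 519 to 674 CPM, and Kdr, 1 of 7, fell with an edgeR adjusted p of 0.0448, which became 0.0620 to 0.128 without any 1 library other than WT3. All 7 had log2 fold changes below 0, and 4 had an unadjusted edgeR p under 0.05. Adrenal markers reached 238 CPM in KO4, against 6.31 to 8.84 CPM in the other 7 libraries. In each of these sums the range of the libraries labelled knockout comes first; their part in the member genes was not tested.

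**Figure D5:**
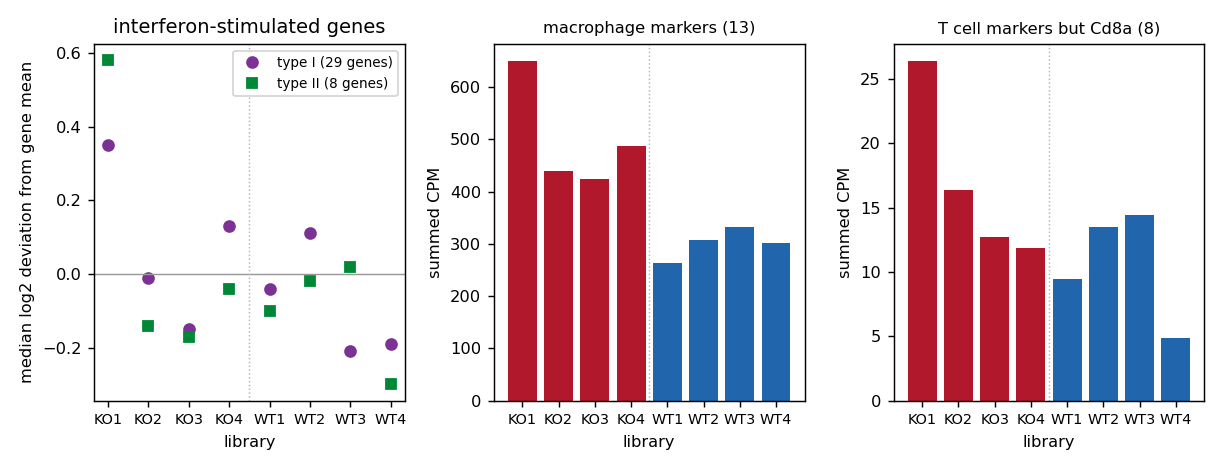
The panels show, for KO1 to KO4 and then WT1 to WT4, the median log2 deviation of the type I and type II members from each gene's mean, the summed CPM of 13 macrophage markers and the summed CPM of 8 T cell markers without Cd8a. KO1 is the highest library in every panel, at 0.35 and 0.58, 650 CPM and 26.4 CPM. With Cd8a kept, which is not drawn, the T cell sum was highest in KO2, at 74.4 CPM, against 36.9 CPM in KO1.

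Members with and without an ISRE core in the promoter window had nearly equal medians. Members without a window, Oas2, Mx1, Mx2 and Zbp1 among them, are in neither set. Other spellings of the element, and cores outside the window, were not searched. Among the 15 members with a core and a tested row, the median log2 fold change was 0.14, 0 were called and KO1 was highest in 7. Among the 14 with a window and no core, the median was 0.15, 1 was called and KO1 was highest in 6. The median deviation of KO1 was 0.33 with a core and 0.27 without. Irf9, whose printed promoter held neither spelling, was the called gene among those without a core.

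The interferons themselves were barely detected. Of 21 interferon genes listed, 11 had a row, 9 of those had 0 counts in all 8 libraries and 0 passed the filter. Ifng had 7 counts over the libraries labelled knockout and 7 over those labelled wildtype, and Ifnk had 1 and 2. A count of 0 still allows up to 3 counts per library, so levels under 0.168 to 0.226 CPM were not detectable at this depth.

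Of the 6 receptor chains, 2 rose, or 33.3%, against 6.23% of all genes, and both were for interferon gamma. Ifngr2, its signalling chain, had 33.1, 35.5, 34.2 and 33.4 CPM in KO1 to KO4, against 25.01, 27.4, 24.3 and 24.7 CPM in WT1 to WT4, a log2 fold change of 0.43 ± 0.072 (edgeR adjusted p = 0.00364). Ifngr1, its binding chain, had 55.9, 64.0, 63.6 and 51.9 CPM in KO1 to KO4, against 44.5, 47.7, 42.4 and 45.2 CPM in WT1 to WT4, a log2 fold change of 0.39 ± 0.082 (edgeR adjusted p = 0.0111). The groups did not overlap in either chain and KO1 was not the highest library in either, yet both lost their calls with the clock gene score as a term, at 0.37 and 0.28 with edgeR adjusted p-values of 0.0835 and 0.230.

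In the JAK-STAT relay, Stat3 rose. Stat3, which also serves interleukin signalling, had 138.5, 145.9, 128.2 and 129.6 CPM in KO1 to KO4, against 93.0, 107.1, 105.2 and 101.2 CPM in WT1 to WT4, a log2 fold change of 0.42 ± 0.071 with an edgeR adjusted p of 0.00401. Every library labelled knockout was above every library labelled wildtype. Of 6 further interferon regulatory factors 0 passed, and Irf4 had the smallest adjusted p at 0.337, with a log2 fold change of 0.42 ± 0.27. Of 12 negative regulators 0 passed edgeR's test at an adjusted p under 0.05, although 6 had an unadjusted p under 0.05; limma voom called 0 and DESeq2 called 3. Trim27 had the smallest adjusted p, 0.0576, with a log2 fold change of 0.26 ± 0.079 and groups that did not overlap. It passed with DESeq2 (adjusted p = 0.0379), and in edgeR with upper quartile factors (0.0379), library totals (0.0155) or without WT1 (0.0431).

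Of 18 nucleic acid sensors and adaptors, 4 rose, or 22.2%, against 6.23% of all genes. Tlr8, an endosomal receptor of RNA products, had 1.17, 0.995, 1.06 and 1.30 CPM in KO1 to KO4, against 0.30, 0.07, 0.12 and 0.12 CPM in WT1 to WT4. WT2, WT3 and WT4 were under the detection limit of 3 counts and the 4 libraries labelled knockout were above it. The log2 fold change was 2.85 ± 0.39 with an edgeR adjusted p of 0.00125. Tlr8 passed the filter on low counts only through the libraries labelled knockout. Its value, and its place among the 4, thus describe a gene that was tested because that group was high. Sting1, the adaptor of cytosolic DNA sensing, had 12.9, 10.1, 8.11 and 10.7 CPM in KO1 to KO4, against 4.82, 6.36, 6.29 and 4.97 CPM in WT1 to WT4, with a log2 fold change of 0.90 ± 0.17 and an adjusted p of 0.00606 that became 0.0627 without KO1 and KO4. Unc93b1, which brings the endosomal receptors to their compartment, had 51.3, 37.6, 38.8 and 38.7 CPM in KO1 to KO4, against 24.9, 28.1, 30.7 and 26.9 CPM in WT1 to WT4 (log2 fold change 0.59 ± 0.11, edgeR adjusted p = 0.00657). Myd88, the adaptor of most of these receptors, had a log2 fold change of 0.30 ± 0.072 with an edgeR adjusted p of 0.0218, and adjusted p-values of 0.0515 to 0.0721 without KO2, KO4, WT2, WT3 or WT4. The Myd88 call was also lost with the clock gene score (0.23, edgeR adjusted p = 0.277), with a replicate block (0.0876) and without KO1 and KO4 (0.0558). The groups did not overlap in any of the 4 genes, which were named because they passed. Over the 18, the groups did not overlap in 6, or 33.3%, against 18.5% of all genes. Tlr8 and Unc93b1 are known from macrophages and related cells, whose markers rose as given above; their part in these values was not tested.

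Of 39 other type I responsive genes tested, 1 rose and 2 fell, or 7.69%, against 11.9% of all genes. Ifitm1, a membrane protein that hinders viral entry, had 11.3, 10.7, 9.34 and 12.7 CPM in KO1 to KO4, against 6.03, 8.04, 4.95 and 7.64 CPM in WT1 to WT4, a log2 fold change of 0.72 ± 0.17 with an edgeR adjusted p of 0.0180, or 0.0575 without KO4, 0.137 without KO1 and KO4, and 0.160 with the clock gene score. The genes that fell were the IFIT relatives Ifit1bl2 and Ifit1bl1. Ifit1bl2 had 1.46, 0.82, 0.89 and 1.16 CPM in KO1 to KO4, against 3.92, 2.92, 2.85 and 2.85 CPM in WT1 to WT4, a log2 fold change of -1.53 ± 0.25 with an edgeR adjusted p of 0.00287. The groups did not overlap. Ifit1bl1 had 2.05, 1.29, 1.12 and 1.59 CPM in KO1 to KO4, against 3.77, 3.51, 2.68 and 1.88 CPM in WT1 to WT4, a log2 fold change of -0.96 ± 0.28 with an edgeR adjusted p of 0.0478; KO1 overlapped WT4, and the call was lost without KO2, KO3, KO4, WT1, WT2 or WT3, with adjusted p-values of 0.0800 to 0.129. Ifit1bl1 did not pass with limma voom (adjusted p = 0.0629), library totals (0.0700), upper quartile factors (0.0580), a replicate block (0.0773), the clock gene score (0.234) or without KO1 and KO4 (0.0615) either. Reads can be split between these copies and Ifit1.

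Of 25 other type II responsive genes tested, 3 rose, or 12.0%, against 6.23% of all genes. Serping1, an inhibitor of the first complement component, had 152.3, 113.6, 116.2 and 119.4 CPM in KO1 to KO4, against 72.6, 89.2, 69.8 and 75.5 CPM in WT1 to WT4, a log2 fold change of 0.71 ± 0.11 with an edgeR adjusted p of 0.00227. Cxcl10, a chemokine that draws T cells, had 12.0, 6.50, 4.87 and 6.72 CPM in KO1 to KO4, against 2.79, 4.09, 3.03 and 2.06 CPM in WT1 to WT4, a log2 fold change of 1.33 ± 0.30 with an edgeR adjusted p of 0.0161, or 0.0816 without KO1 and KO4. Icam1, a leukocyte adhesion molecule, had 35.8, 21.9, 23.9 and 26.3 CPM in KO1 to KO4, against 12.1, 17.0, 16.4 and 19.5 CPM in WT1 to WT4, a log2 fold change of 0.73 ± 0.18 with an edgeR adjusted p of 0.0244, and adjusted p-values of 0.0543 to 0.0615 without KO4, WT2 or WT3. Without KO1 and KO4 the Icam1 value was 0.49 with an edgeR adjusted p of 0.124, and with a replicate block the adjusted p was 0.0827. In all 3 genes, which were named because they passed, the groups did not overlap and KO1 was the highest library. Over the 25, the groups did not overlap in 5, against 18.5% of all genes. KO1 was the highest library in 21 of the 25, against 16.0% of all genes. Over the 111 pathway genes tested besides the members, 11 rose and 2 fell, or 11.7%, close to the 11.9% of all genes.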

How the data were processed

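Whole-kidney RNA of 4 samples labelled knockout and 4 labelled wildtype was sequenced with a directional kit, per the labels' protocols. The deposited values are raw counts of reads per gene, 1 file per library; STAR, HTSeq, edgeR and the build mm9 are named per the submitters' processing notes. Not given in the sources used here are their versions, their roles and the annotation. The names of the deposited count files state unstranded counting, so reads of a gene and an overlapping antisense gene cannot be told apart; exons of 9 members overlap a gene on the opposite strand. Of all records, 63.8% to 69.1% were assigned to genes, 13.0% to 16.8% to no feature, 2.17% to 2.42% were ambiguous and 15.4% to 18.0% not unique; these summary rows stayed out of all totals. Symbols were matched for 32860 of 37583 identifiers.

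Genes were kept by filterByExpr, scaled by TMM factors and compared by edgeR's two-sided quasi-likelihood test (edgeR 4.0.16 in R 4.3.3, with a robust fit and no covariate) with Benjamini-Hochberg adjustment over 15228 genes and a threshold of 0.05. Levels in CPM carry the TMM factors. The SE was taken from the F statistic, and 95% intervals add and subtract the t quantile times the SE. The fit was tested on simulated data. Detection limits set from counts cover counting error only, as PCR copies were not marked by molecule.

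The members and all gene lists were chosen with earlier results of these data known. Named genes are all members and, in each pathway list, up to 4 that passed with the smallest adjusted p, or, where none passed, the 1 with the smallest. The alternatives were DESeq2's size factors, library totals, upper quartile factors, DESeq2 1.42.0, limma voom (limma 3.58.1), no filter, a filter of 1 CPM in 4 or more libraries, a replicate block, thresholds of 0.01 and 0.1, a clock gene score as a term, leaving out each library, and leaving out KO1 and KO4. Libraries of a group differed from each other beyond sampling noise, at 9.04 to 22.9 chi-square units per degree of freedom.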

Additional observations from a re-analysis of the deposited data

Results flagged for a closer look

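Within each group of 4 libraries, a gene was picked out where the gap between the highest or lowest library and its nearest neighbour, divided by the range of the group, was above Dixon's 95% critical value. This happened in 14 of 104 groups examined. The critical value gives about 1 in 20 for unrelated groups of normal values. These groups share the same libraries and include pathway genes named because they passed, so whether 14 is an excess was not tested. Among the libraries labelled knockout, KO1 was highest and apart for Oas3 (gap over range 0.908), Oasl2 (0.904), Mx2 (0.979) and Gbp2 (0.889) of the members, and for Unc93b1 (0.910) and Serping1 (0.848) of the other pathway genes. Over all tested genes, KO1 was apart in this way in 2.24%, against 4 of 37 members, or 10.8%. KO3 was lowest and apart for Ifit1 (0.911). Among the libraries labelled wildtype, WT2 was highest for Rtp4 (0.899) and Stat2 (0.861) and lowest for Myd88 (0.969). WT3 was lowest for Ifit2 (0.840), WT4 was lowest for Igtp (0.932) and highest for Irf4 (0.840), and WT1 was highest for Ifit1bl2 (0.933).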

How the results depend on the processing

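The number of genes called over all 15228 was 1817. It was 1094 with a replicate block, 758 with the clock score as a term, 912 without KO1 and KO4, 706 at a threshold of 0.01, 2850 at 0.1, and 1076 to 1940 without each library in turn. Of the type I members 2 were called under each alternative except without KO1 and KO4, where 1 was (Irf9); with the clock score the 2 were Mx2 and Oas2. Of the type II members 0 were called except with the clock score, where 2 were. Of the other pathway genes 13 were called, against 28 with library totals, 22 with DESeq2, 7 without KO1 and KO4, 7 at 0.01, 22 at 0.1, and 9 to 19 without each library. The type I median of 0.24 became 0.00039 without KO1 and KO4 and ran from 0.13 to 0.34 without each library. The type II median of 0.26 became 0.0028 without KO1 and KO4 and 0.59 with the clock score, and ran from 0.05 to 0.34 without each library. The replicate numbers did not pair the libraries: same-numbered libraries correlated at -0.22 to 0.16, 1 library labelled knockout correlated best with its own number, and the block left both called members called.

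In 16 members, none of them called, the sign turned under some alternative. With the clock score, Ifit1 was -0.03, Cmpk2 0.30, Isg20 -0.50, Xaf1 -0.04, Trim25 0.04 and Irgm1 0.05. With library totals, Cmpk2 was 0.05, Trim25 0.0094, Usp18 0.04 and Irgm1 0.0046. Without KO1 and KO4, Ifit1 was -0.05, Ifit3 -0.13, Oasl2 -0.03, Xaf1 -0.07, Sp100 -0.14, Ifih1 -0.10, Zbp1 -0.02, Irf7 -0.02, Irf1 -0.02 and Gbp2 -0.03. Sp100 was -0.00022 with DESeq2 size factors, -0.00016 with DESeq2, -0.0031 with no filter and -0.0023 with the replicate block. Without each library in turn, Ifit1 ran from -0.04 to 0.21, Ifit3 from -0.02 to 0.34, Oasl2 from -0.0027 to 0.33, Cmpk2 from -0.25 to 0.09, Isg20 from -0.21 to 0.19, Xaf1 from -0.07 to 0.16, Sp100 from -0.09 to 0.09, Ifih1 from -0.03 to 0.18, Usp18 from -0.14 to 0.06 and Gbp7 from -0.01 to 0.12. The causes were not tested. With 4 libraries a group, a transcript as low as Oas3 has an interval of -0.16 to 2.06 on the log2 scale.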
